A study of Mus musculus with 12 samples.

Results

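The SLC25 carriers were followed as a family in cultured primary mouse hepatocytes. All gene symbols made of Slc25a and a number were taken from the deposited expression table, apart from 3 symbols that the selection rule sets aside, which left 44 genes among the 36144 in the table. Sums, shares and ranks of abundance given below for the family or its classes are over these 44 genes only. RNA was measured by poly-A sequencing in 12 libraries, 3 per group, of hepatocytes from a wild-type C57/Bl6J mouse, released by collagenase, plated, and kept without serum for 16 h. The FDMn group had 6 µM manganese chloride during those 16 h and then 10 µM forskolin and 1 µM dexamethasone for 5 h. The FDI group had the same forskolin and dexamethasone, preceded for 1 h by 100 nM insulin, and the FD group had forskolin and dexamethasone alone. The Mock group had neither drug, no insulin and no manganese. Forskolin raises cAMP and dexamethasone is a synthetic glucocorticoid, and together they imitate the hormones of fasting. The labels mention a single mouse and leave unsaid how the replicates of a group were made, so the p-values reflect the spread among libraries, part or all of which may be technical. No group had manganese or insulin without forskolin and dexamethasone, and the length of exposure differs between manganese and insulin, so the agent and its timing cannot be told apart.

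SLC25 proteins sit mostly in the inner mitochondrial membrane and exchange metabolites between the matrix and the cytosol. Each is specific for a small group of substrates, such as ADP and ATP, phosphate, citrate, malate, glutamate, iron, NAD or glutathione. In liver they connect the matrix to gluconeogenesis, the urea cycle, heme synthesis and fat synthesis, all of which have steps on both sides of the membrane. A few members lie elsewhere: Slc25a17 is peroxisomal and Slc25a46 is in the outer membrane.

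Promoter windows of 3 carriers that were higher in FD than in Mock are shown because they hold the core of the cAMP response element (CRE), the DNA motif bound by CREB-type factors. They run 5′ to 3′ on the gene's strand, from 250 bases before to 50 bases after a RefSeq start on GRCm38.p6. Capitals mark TGACG on either strand, and in Slc25a25 the palindrome TGACGTCA, in which 2 such cores overlap.
Slc25a25, one of its 3 RefSeq starts, chr2:32424017-32424316, minus strand: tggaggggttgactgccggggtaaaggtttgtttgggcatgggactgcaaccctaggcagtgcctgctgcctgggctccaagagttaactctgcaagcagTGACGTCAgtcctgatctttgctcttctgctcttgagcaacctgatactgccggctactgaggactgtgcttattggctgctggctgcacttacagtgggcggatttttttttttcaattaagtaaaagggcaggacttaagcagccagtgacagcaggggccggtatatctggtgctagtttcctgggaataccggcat
Slc25a48, chr13:56438105-56438404, plus strand: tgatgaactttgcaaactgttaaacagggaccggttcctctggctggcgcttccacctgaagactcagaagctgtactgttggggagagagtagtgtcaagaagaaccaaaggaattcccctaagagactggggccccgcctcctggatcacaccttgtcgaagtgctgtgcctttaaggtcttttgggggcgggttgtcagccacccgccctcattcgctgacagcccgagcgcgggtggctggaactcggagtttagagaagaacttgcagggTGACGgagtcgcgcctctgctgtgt
Slc25a3, chr10:91123918-91124217, minus strand: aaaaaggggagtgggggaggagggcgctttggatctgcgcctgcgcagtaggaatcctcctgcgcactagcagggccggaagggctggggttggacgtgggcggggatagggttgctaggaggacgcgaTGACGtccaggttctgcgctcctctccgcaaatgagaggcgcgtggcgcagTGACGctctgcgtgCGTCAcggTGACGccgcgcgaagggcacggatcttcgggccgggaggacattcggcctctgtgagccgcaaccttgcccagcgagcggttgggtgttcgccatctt
TGACG was found in 20.8% of all 32851 windows of this length and TGACGTCA in 1.79%. Among carriers, 33 had a window, with 42 windows in all, of which 12 held TGACG and 2 held TGACGTCA. Counted by gene, which is not on the scale of those percentages, 11 carriers had TGACG in at least 1 window. The palindrome TGACGTCA was in windows of 2, Slc25a25 and Slc25a36. No TGACG was found in the 3 windows of Slc25a22, the carrier with the highest log2 change in FD, or in those of Slc25a30 and Slc25a34, which also rose. Slc25a51, which rose too, had no window to examine. Slc25a44, which rose as well, was not among the 11 carriers with TGACG. The other windows of Slc25a25 held no TGACG. The TGACG of Slc25a48 lies 25 bases after the start. Windows of Slc25a28 and Slc25a53, which fell in FD, hold TGACG. The glucocorticoid half-site TGTTCT was found in 19.0% of all windows and in 4 of the 42 carrier windows, from 4 carriers. The ATF4 element TGATGCAA was in 0.895% of all windows and in 0 of the 42. The window of Slc25a45 holds TGTTCT. A match is a description of letters, and gene-level values do not show which start was used.

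In hepatocytes given forskolin and dexamethasone, transcripts of the glutamate carrier Slc25a22, the ATP-Mg/phosphate carrier Slc25a25, the choline-linked Slc25a48 and the NAD carrier Slc25a51 rose, to 7.46, 5.96, 9.63 and 3.14 times the Mock mean. The iron carrier Slc25a37 fell to 0.255 times the Mock mean. With manganese before these drugs, Slc25a37 (2.11 times the FD mean), Slc25a47 (1.89 times), Slc25a45 (1.66 times) and Slc25a22 (1.40 times) rose. Falls were seen for Slc25a23 (0.562 times), Slc25a48 (0.629 times) and Slc25a3 (0.781 times). The rises of Slc25a47 and Slc25a45 did not pass the test when FDMn replicate 1 or 2 was left out. With insulin Slc25a37 rose to 1.78 times the FD mean, and the other 3 carriers that rose did so by less. The carriers of citrate, dicarboxylates and oxoglutarate passed the test in no comparison.

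Values are TPM, the number of transcripts of a gene in each 1000000 transcripts, which are per unit of length and can be compared between genes. A carrier was tested if 3 or more of the 12 libraries had it at 1 TPM or above, which held for 36 of the 44. Changes are differences of log2(TPM + 1), which understate changes of low genes, with their SE from limma fitted to all 11544 genes that passed the filter, and p-values are adjusted over those genes by the Benjamini-Hochberg method. After a mean TPM the sign ± gives the SD over 3 libraries, and after a log2 change it gives the SE. On the second principal component, which held 12.4% of the variance, FD replicates 1 and 2 (22.3 and 29.0) lay apart from FD replicate 3 (7.98). Rose, fell, higher and lower are used of changes with an adjusted p under 0.05. In FD against Mock 8 of the 36 carriers rose and 7 fell, together 15 of 36, where 11.2% of all genes tested rose, 29.9% fell and 41.1% did either. In FDMn against FD 5 rose and 5 fell, against 7.22%, 7.9% and, in either direction, 15.1% of all genes. In FDI against FD 4 rose and 0 fell, against 10.2%, 4.35% and 14.5%. At an unadjusted p under 0.05 limma gave 8 and 2 carriers with insulin. In FDMn against FDI 4 were higher and 7 lower, against 5.68%, 11.9% and 17.6%. In bulk RNA, fewer cells of a type and less RNA per cell cannot be told apart. The FD comparison and the manganese and insulin comparisons share the FD libraries. Slc25a48 and Slc25a34 passed the filter only through the groups where they were high, so their place among the 8 that rose is fixed in part by the filter.

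The 20 carriers that passed the test in at least 1 comparison, 13 of them with a log2 change of at least 0.58 in size, came from all substrate classes but one. Of all 11544 genes tested, 53% passed in at least 1 of the 4 comparisons and 24.3% did so with a log2 change of that size. The median log2 change of the 36 carriers was −0.0048 in FD against Mock, 0.02 in FDMn against FD, 0.05 in FDI against FD and −0.06 in FDMn against FDI. Over all genes tested the medians were −0.15, 0.0032, 0.04 and −0.04 in the same order. Median-of-ratios scaling moved the all-gene median of FD against Mock to −0.0041 and the counts over all genes, 1296 higher and 3447 lower as reported, to 2059 higher and 1972 lower. With it 9 carriers rose and 3 fell, and the 3 that fell were Slc25a23, Slc25a24 and Slc25a37.

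**Figure D1:**
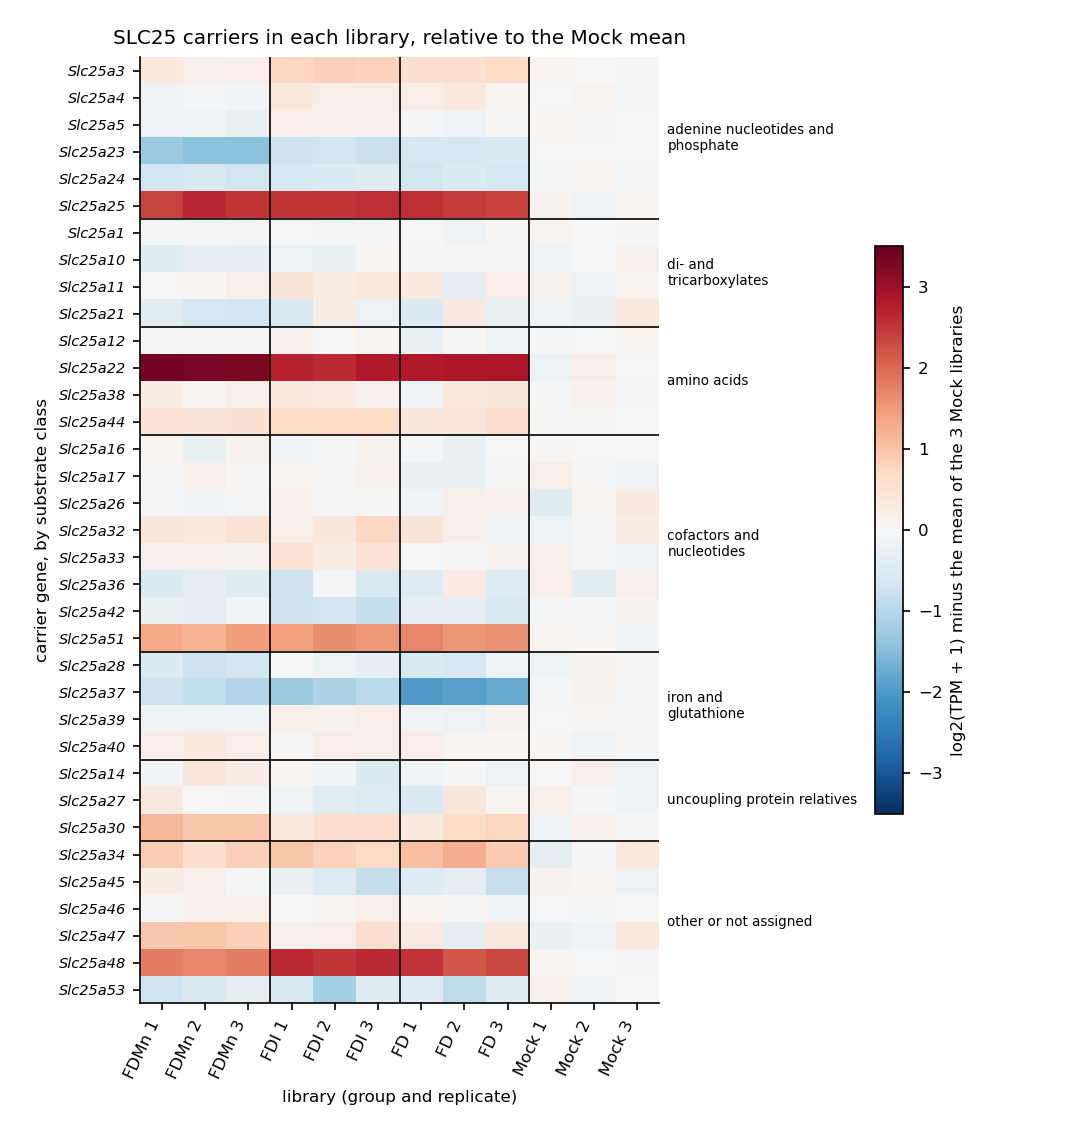
Tested carriers (rows, by substrate class) in each library (columns), as log2(TPM + 1) minus the mean of the 3 Mock libraries. Slc25a22, Slc25a25, Slc25a48 and Slc25a51 stand out as higher in all 9 libraries given forskolin and dexamethasone, and Slc25a37 as lower in them.

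The glutamate carrier Slc25a22 (GRCm38 chr7:141429744-141437892, minus strand), which brings glutamate into the matrix together with a proton, had the highest log2 change of the family. It had 169, 166 and 163 TPM in FDMn libraries and 106, 100.3 and 116 TPM in FDI libraries. It had 116, 119 and 119 TPM in FD libraries and 13.5, 18.2 and 15.7 TPM in Mock libraries. Every library with forskolin and dexamethasone was above every Mock library, and the FDMn libraries were above all others. FD was 7.46-fold over Mock (log2 change 2.83 ± 0.09, limma adjusted p = 1.9e-10, n = 3 each). With manganese the level rose further, 1.40-fold over FD (0.49 ± 0.09, adjusted p = 0.0033), and it was higher in FDMn than in FDI (0.62 ± 0.09, adjusted p = 0.00056). With insulin the log2 change from FD was −0.14 ± 0.09 (adjusted p = 0.35). Its sister gene Slc25a18 was at 0 to 0.0327 TPM, so Slc25a22 made up nearly all of the glutamate carrier transcript.

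Slc25a44 was the other amino acid carrier with a call. It is a carrier of branched-chain amino acids described in brown fat and averaged 28.3 ± 1.98 TPM in FD and 20.2 ± 0.453 TPM in Mock (SD, n = 3 each), with no overlap between the libraries (log2 change 0.47 ± 0.07, limma adjusted p = 0.00014). It averaged 28.7 ± 0.911 TPM in FDMn and 32.8 ± 0.542 TPM in FDI, and neither passed the test against FD. Slc25a12, an aspartate-glutamate exchanger of the malate-aspartate shuttle, averaged 13 ± 0.0705, 14.3 ± 0.818, 12.4 ± 1.47 and 13.5 ± 0.621 TPM in FDMn, FDI, FD and Mock. Slc25a38, a glycine carrier for heme synthesis, averaged 14 ± 0.852, 14.8 ± 1.14, 14.4 ± 2.99 and 12.2 ± 1.22 TPM in the same groups, and neither gene passed in any comparison. Slc25a2 and Slc25a29, carriers of basic amino acids, did not pass the filter, with highest values of 0.151 and 1.22 TPM. Together the 7 genes of this class held 12.4% of the family's summed TPM in FDMn, 8.20% in FDI, 9.29% in FD and 3.82% in Mock, most of it from Slc25a22 in FDMn, FDI and FD.

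Carriers of adenine nucleotides and phosphate split in FD. Slc25a25 (GRCm38 chr2:32414487-32451445, minus strand), a calcium-regulated exchanger of ATP-Mg for phosphate, had 68.1, 82.9 and 74.9 TPM in FDMn and 74.6, 75.2 and 78.5 TPM in FDI libraries. It had 79.8, 72.5 and 69.9 TPM in FD and 13.5, 10.8 and 13 TPM in Mock libraries. The 3 groups with forskolin and dexamethasone overlapped each other, and all 9 of their libraries lay above Mock. FD was 5.96-fold over Mock (log2 change 2.49 ± 0.09, limma adjusted p = 8.9e-10), while the changes from FD with manganese (0.02 ± 0.09, adjusted p = 0.91) and insulin (0.04 ± 0.09, adjusted p = 0.81) did not pass. The annotated exons of Slc25a25 overlap the gene Naif1 on the other strand, and the use of strand is not given in the sources used here. Naif1 was at 3.81 to 4.14 TPM in FDMn, 1.94 to 2.21 TPM in FDI, 2.33 to 2.78 TPM in FD and 1.70 to 2.14 TPM in Mock. Slc25a23 likewise shares exon bases with Gm17168 and Slc25a33 with Gm13068, neither analysed here.

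Its relatives Slc25a23 and Slc25a24, which exchange the same substrates, both fell in FD. Slc25a23 had 31.6, 28.9 and 29.0 TPM in FDMn and 47.5, 49.8 and 46.1 TPM in FDI libraries. It had 52.4, 52.6 and 54.3 TPM in FD and 80.1, 78.5 and 80.8 TPM in Mock libraries. The 4 groups did not overlap, with FDMn below FDI, FDI below FD and FD below Mock. The log2 change was −0.58 ± 0.06 in FD against Mock (adjusted p = 7.6e-06), −0.81 ± 0.06 in FDMn against FD (adjusted p = 6.9e-06) and −0.66 ± 0.06 in FDMn against FDI (adjusted p = 1.7e-05), all from limma with n = 3 each. The step with insulin, −0.15 ± 0.06, did not pass (adjusted p = 0.11). Slc25a24 had 45.9, 49.9 and 47.4 TPM in FDMn and 48.3, 53.2 and 54.5 TPM in FDI libraries. It had 47.1, 51.8 and 48.1 TPM in FD and 71.6, 78.5 and 72.4 TPM in Mock libraries. It fell in FD (log2 change −0.59 ± 0.07, adjusted p = 2.8e-05) and lay at about the FD level in the FDMn and FDI libraries, with neither agent passing the test (adjusted p = 0.77 and 0.46). The fourth gene of this group, Slc25a41, was listed at 0 in all libraries.

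The shares of these genes in their summed TPM do not depend on the scaling of a library. Slc25a25 made up 44.5, 41.0 and 40.6% of the ATP-Mg/phosphate carrier transcript in FD libraries and 8.18, 6.46 and 7.80% in Mock libraries. In FDMn libraries its share was 46.8, 51.3 and 49.5%, above the 43.8, 42.2 and 43.8% of FDI libraries. The summed TPM of the group itself was 179, 177 and 172 in FD and 165, 168 and 166 in Mock libraries, a difference far smaller than the exchange between its genes. An exact permutation test of 3 against 3 cannot go below p = 0.1, so shares are given as descriptions.

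**Figure D2:**
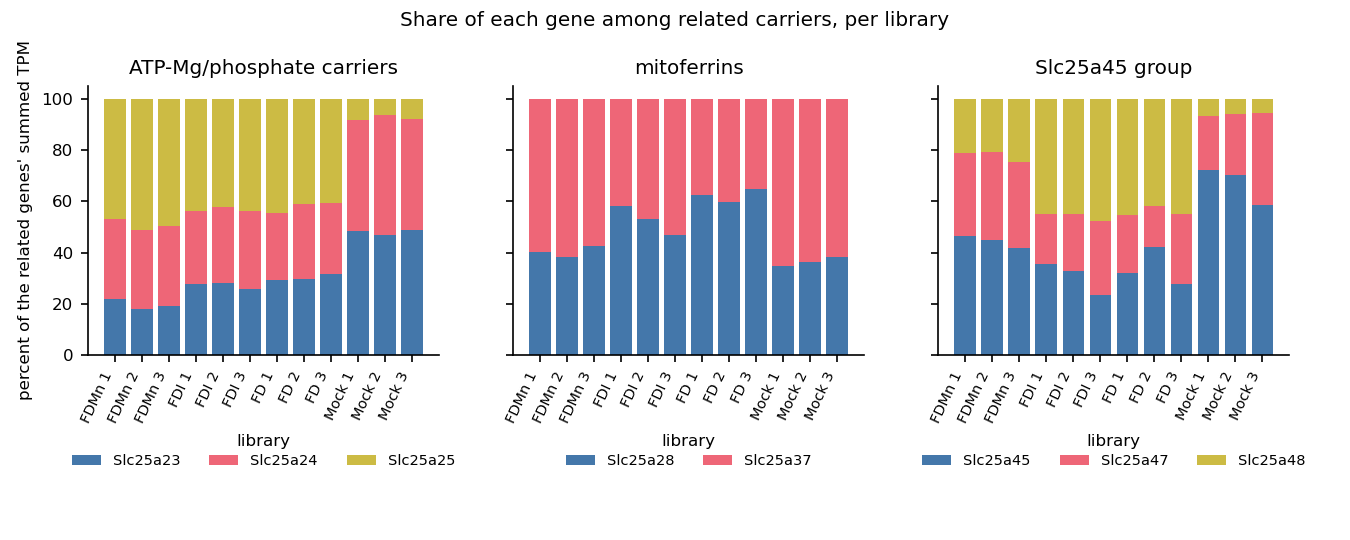
Percent of the summed TPM of 3 groups of related carriers that each gene contributes, per library. The Slc25a25 part is 40.6 to 44.5% in FD and 6.46 to 8.18% in Mock, and the Slc25a37 part is largest in Mock, smallest in FD and in between with manganese or insulin.

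Slc25a3, the phosphate carrier that supplies ATP synthase, was with Slc25a25 the member of this class that rose in FD, and by the mean over all 12 libraries it is among the 3 most abundant carriers. It had 281, 250.5 and 263 TPM in FDMn and 373, 397 and 391 TPM in FDI libraries. It had 328, 329.6 and 360.4 TPM in FD and 232, 225 and 210.3 TPM in Mock libraries. FD lay above Mock without overlap (log2 change 0.61 ± 0.06, limma adjusted p = 7.1e-06), and FDMn lay between them. It fell in FDMn relative to FD (−0.36 ± 0.06, adjusted p = 0.0021), and it was lower in FDMn than in FDI (−0.55 ± 0.06, adjusted p = 9.5e-05). The insulin change of 0.19 ± 0.06 missed the threshold (adjusted p = 0.054). The ADP/ATP translocases Slc25a5 and Slc25a4 were also lower in FDMn than in FDI. Slc25a5, the main one here, averaged 296 ± 12.3 TPM in FDMn and 385 ± 12.9 TPM in FDI (−0.38 ± 0.06, adjusted p = 0.0011), with 326 ± 22 TPM in FD and 339 ± 15.5 TPM in Mock. Slc25a4 averaged 9.02 ± 0.479 TPM in FDMn and 11.9 ± 0.905 TPM in FDI (−0.37 ± 0.09, adjusted p = 0.017), with 11.7 ± 1.03 TPM in FD and 9.84 ± 0.586 TPM in Mock. Slc25a5 rose with insulin (0.24 ± 0.06, adjusted p = 0.018) and Slc25a4 fell with manganese (−0.34 ± 0.09, adjusted p = 0.029). Slc25a31, a translocase of germ cells, stayed at or below 0.315 TPM and was not tested. A processed copy of Slc25a5 listed as Slc25a5-ps was at 0 in 11 libraries and at 0.0489 TPM in the other.

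Of the carriers of iron and glutathione, Slc25a37 (GRCm38 chr14:69241848-69285112, minus strand) moved in 3 comparisons. It encodes mitoferrin-1, which brings iron into the matrix and is known best from red cell precursors. Slc25a37 had 23.2, 21.1 and 18.8 TPM in FDMn and 15.9, 17.4 and 19.9 TPM in FDI libraries. It had 9.23, 9.80 and 10.9 TPM in FD and 37.9, 42.4 and 37.1 TPM in Mock libraries. FD was the lowest group, Mock the highest, and the FDMn and FDI libraries overlapped each other in between. It fell in FD to 9.98 TPM, against 39.1 TPM in Mock (log2 change −1.87 ± 0.10, limma adjusted p = 4.1e-08). It rose 2.11-fold with manganese (1.01 ± 0.10, adjusted p = 7.8e-05) and 1.78-fold with insulin (0.77 ± 0.10, adjusted p = 0.00048). The difference between FDMn and FDI, 0.23 ± 0.10, did not pass (adjusted p = 0.15). The annotated genes Gm31748 and Gm27223 share exon bases with Slc25a37 on the other strand and were not analysed here. The summed TPM of erythroid marker genes was 8.84 to 11.8 in FDMn, 11.0 to 14.1 in FDI, 12.9 to 13.8 in FD and 10.6 to 12.4 in Mock, mostly Alas2. Their part in the change of Slc25a37 was not tested.

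Slc25a28, which encodes mitoferrin-2, the form found in most tissues, averaged 14.2 ± 1.18, 19.8 ± 2.30, 16.6 ± 3.13 and 22.4 ± 2.16 TPM in FDMn, FDI, FD and Mock. It was lower in FD than in Mock (log2 change −0.42 ± 0.13, limma adjusted p = 0.021), although FD replicate 3 reached the Mock range, and lower in FDMn than in FDI (−0.45 ± 0.13, adjusted p = 0.031). Slc25a37 made up 60.0, 61.6 and 57.4% of the mitoferrin transcript in FDMn libraries and 41.8, 46.9 and 53.1% in FDI libraries. Its share was 37.7, 40.4 and 35.1% in FD and 65.4, 63.6 and 61.8% in Mock libraries. Slc25a28 was thus the more abundant mitoferrin transcript in all 3 FD libraries and the less abundant one in all 3 FDMn and all 3 Mock libraries. The FDI libraries were split, with Slc25a37 above Slc25a28 in replicate 3 only.

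Slc25a39, needed for glutathione uptake into mitochondria in human cells, was the most abundant carrier, with a mean of 384 TPM over the 12 libraries. It averaged 345 ± 1.58 TPM in FDMn and 440.5 ± 16.8 TPM in FDI, without overlap (log2 change −0.35 ± 0.07, limma adjusted p = 0.0073). It averaged 366 ± 46.9 TPM in FD, where replicate 3 at 419 TPM stood above the other two, and 385 ± 12 TPM in Mock. The change with insulin from FD passed the test (0.27 ± 0.07, adjusted p = 0.028), and those of FD against Mock (adjusted p = 0.41) and FDMn against FD (adjusted p = 0.55) did not. Its relative Slc25a40 averaged 4.06 ± 0.256, 3.59 ± 0.520, 3.62 ± 0.306 and 3.22 ± 0.320 TPM in FDMn, FDI, FD and Mock and passed in no comparison.

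**Figure D3:**
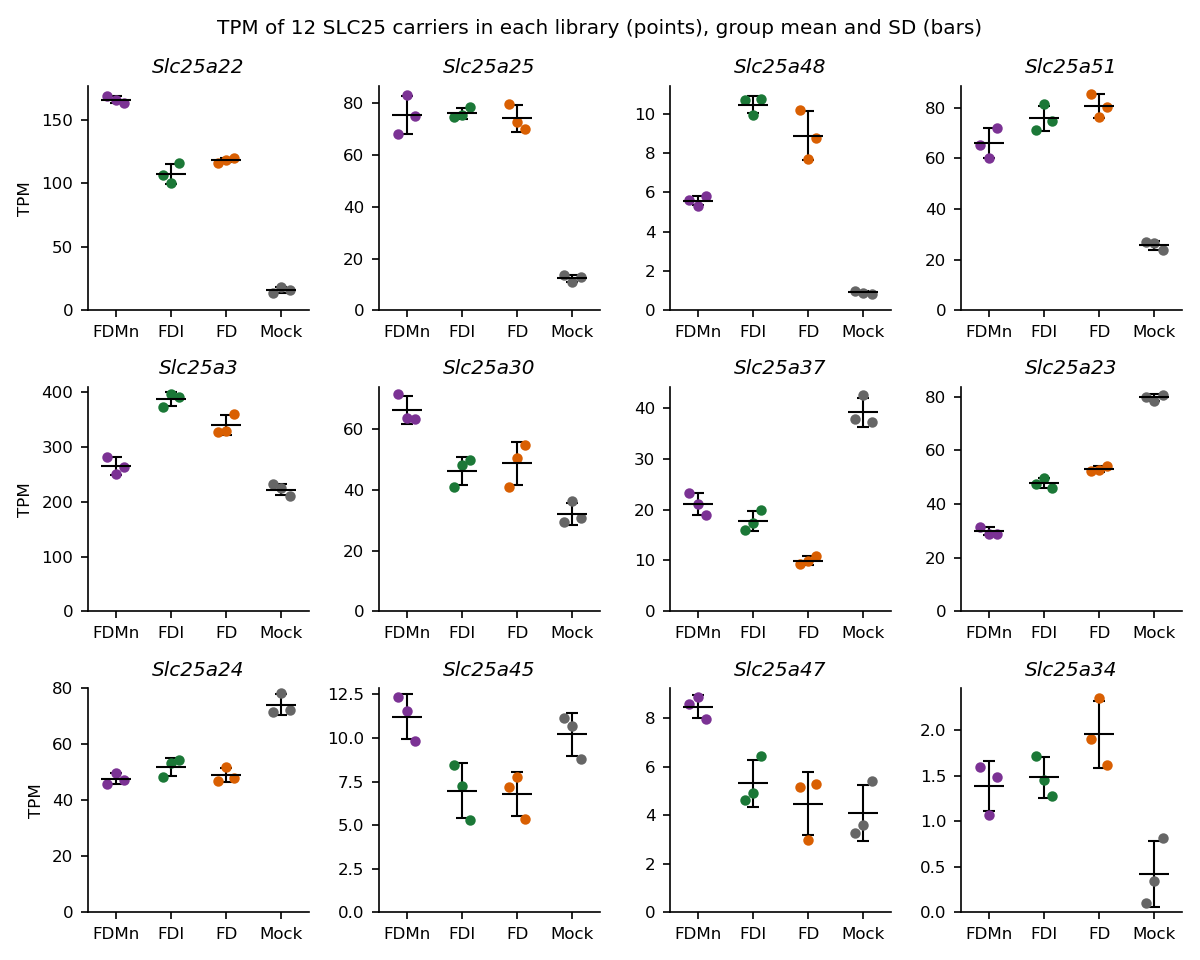
TPM of 12 carriers in each library (points), with the group mean and SD (bars), on axes that start at 0. Slc25a22 spans 163 to 169 TPM in FDMn and 13.5 to 18.2 TPM in Mock, while Slc25a37 spans 18.8 to 23.2 TPM in FDMn and 9.23 to 10.9 TPM in FD.

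Among carriers of cofactors and nucleotides, Slc25a51 (GRCm38 chr4:45395923-45408766, minus strand) had the highest log2 change in FD. It is required for NAD import into mitochondria in human cells. Slc25a51 had 65.3, 60.3 and 72.2 TPM in FDMn and 71.4, 81.3 and 74.9 TPM in FDI libraries. It had 85.5, 76.5 and 80.1 TPM in FD and 26.8, 26.5 and 23.7 TPM in Mock libraries. All 9 libraries with forskolin and dexamethasone were above Mock, and FD was 3.14-fold over it (log2 change 1.62 ± 0.08, limma adjusted p = 1.7e-08). It was lower in FDMn than in FD (−0.29 ± 0.08, adjusted p = 0.032), and the insulin change of −0.09 ± 0.08 did not pass (adjusted p = 0.52). Slc25a33, a pyrimidine nucleotide carrier, rose with insulin, averaging 28.3 ± 2.60 TPM in FDI and 21.1 ± 1.64 TPM in FD without overlap (0.40 ± 0.09, adjusted p = 0.013). It averaged 23.4 ± 0.439 TPM in FDMn and 21.1 ± 2.27 TPM in Mock. Slc25a42, a coenzyme A carrier, averaged 3.47 ± 0.376 TPM in FDMn and 2.08 ± 0.198 TPM in FDI (0.53 ± 0.12, adjusted p = 0.011). It averaged 2.99 ± 0.328 TPM in FD and 4.19 ± 0.371 TPM in Mock (−0.38 ± 0.12, adjusted p = 0.026). The other 6 tested genes of this class passed in no comparison. Among them were Slc25a16, the peroxisomal Slc25a17, the S-adenosylmethionine carrier Slc25a26, the folate carrier Slc25a32 and the second pyrimidine nucleotide carrier Slc25a36, with means over all libraries of 16.7, 30.1, 4.65, 9.56 and 0.701 TPM.

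The di- and tricarboxylate carriers were the class with no call in any comparison, and they are among 16 of the 36 tested carriers without one. At an unadjusted p under 0.05, limma gave 0 of 4 in FD against Mock, FDI against FD and FDMn against FDI, and 1 of 4, lower, in FDMn against FD. The citrate carrier Slc25a1, which exports citrate for fat synthesis and had the fourth highest mean over all 12 libraries, had 136, 138 and 134 TPM in FDMn and 141, 137 and 136 TPM in FDI libraries. It had 141, 129.8 and 145 TPM in FD and 149.6, 139 and 134 TPM in Mock libraries. The groups overlapped in every comparison, and the FD log2 change was −0.02 ± 0.06 (adjusted p = 0.76). The dicarboxylate carrier Slc25a10 averaged 12.9 ± 0.612, 15.3 ± 2.01, 16.2 ± 0.642 and 16.6 ± 1.75 TPM in FDMn, FDI, FD and Mock. Its FDMn libraries lay below all others, and its change from FD with manganese missed the threshold (−0.31 ± 0.10, limma adjusted p = 0.061). The oxoglutarate carrier Slc25a11, which also serves the malate-aspartate shuttle, averaged 20.0 ± 1.34, 24.6 ± 1.73, 20.5 ± 5.01 and 19.0 ± 2.49 TPM in the same groups. Slc25a21, a carrier of oxoadipate and oxoglutarate, was below 1 TPM in 9 of the 12 libraries.

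Slc25a30, a relative of the uncoupling proteins, rose in FD and rose again with manganese. It had 71.6, 63.6 and 63.3 TPM in FDMn and 40.8, 48.1 and 49.6 TPM in FDI libraries. It had 40.9, 50.4 and 54.8 TPM in FD and 29.4, 36.2 and 30.8 TPM in Mock libraries. The FDMn libraries were above all others, and the FDI and FD libraries overlapped. The log2 change was 0.58 ± 0.12 in FD against Mock (limma adjusted p = 0.0018), 0.44 ± 0.12 in FDMn against FD (adjusted p = 0.024) and 0.51 ± 0.12 in FDMn against FDI (adjusted p = 0.01). The other 2 genes of the class, Slc25a14 and Slc25a27, averaged 3.78 and 0.928 TPM over all libraries and passed in no comparison.

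Slc25a48, Slc25a47 and Slc25a45, which are close relatives by sequence, differed in their changes. Slc25a48 (GRCm38 chr13:56438355-56474239, plus strand), linked to choline uptake by mitochondria, had 5.62, 5.33 and 5.82 TPM in FDMn and 10.7, 9.95 and 10.7 TPM in FDI libraries. It had 10.2, 7.70 and 8.76 TPM in FD and 1.01, 0.898 and 0.859 TPM in Mock libraries. The FDMn libraries lay between Mock and the other treated libraries, without overlap. FD was 9.63-fold over Mock (log2 change 2.35 ± 0.11, limma adjusted p = 7.7e-09). It fell with manganese (−0.58 ± 0.11, adjusted p = 0.004) and was lower in FDMn than in FDI (−0.80 ± 0.11, adjusted p = 0.00041), while the insulin change of 0.22 ± 0.11 did not pass (adjusted p = 0.21).

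Slc25a47 had 8.59, 8.86 and 7.95 TPM in FDMn and 4.62, 4.89 and 6.43 TPM in FDI libraries. It had 5.14, 2.98 and 5.29 TPM in FD and 3.26, 3.58 and 5.41 TPM in Mock libraries. The FDMn libraries were above all others. It rose with manganese (log2 change 0.82 ± 0.20, limma adjusted p = 0.016), and the difference between FDMn and FDI missed the threshold (0.59 ± 0.20, adjusted p = 0.058). Slc25a45 had 12.3, 11.5 and 9.80 TPM in FDMn and 8.43, 7.22 and 5.28 TPM in FDI libraries. It had 7.2, 7.77 and 5.36 TPM in FD and 11.2, 10.7 and 8.82 TPM in Mock libraries. It fell in FD (−0.54 ± 0.17, adjusted p = 0.022), rose with manganese (0.66 ± 0.17, adjusted p = 0.02) and was higher in FDMn than in FDI (0.63 ± 0.17, adjusted p = 0.022), so that FDMn and Mock libraries covered a similar range. Slc25a48 made up 21.2, 20.7 and 24.7% of the summed TPM of these 3 genes in FDMn libraries and 45.1, 45.1 and 47.8% in FDI libraries. Its share was 45.2, 41.7 and 45.2% in FD and 6.55, 5.93 and 5.69% in Mock libraries.

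Of the remaining members, Slc25a34 had 1.90, 2.35 and 1.62 TPM in FD and 0.108, 0.350 and 0.819 TPM in Mock libraries (log2 change 1.08 ± 0.20, limma adjusted p = 0.00089). It had 1.59, 1.07 and 1.49 TPM in FDMn and 1.72, 1.45 and 1.28 TPM in FDI libraries, all above Mock, with FDI overlapping FD and FDMn just below FD. Slc25a53 had 1.16, 0.589 and 1.20 TPM in FD and 2.25, 1.69 and 1.92 TPM in Mock libraries (−0.59 ± 0.22, adjusted p = 0.049), and 0.815, 1.09 and 1.40 TPM in FDMn and 0.987, 0.288 and 1.18 TPM in FDI libraries. Both are low enough that the values of single libraries weigh heavily. Slc25a46, an outer membrane protein of mitochondrial shape, averaged 25.4 ± 1.33, 24.7 ± 1.64, 23.2 ± 1.56 and 23.1 ± 0.677 TPM in FDMn, FDI, FD and Mock and passed in no comparison. The 8 members below the filter were Slc25a2, Slc25a18, Slc25a29, Slc25a31, Slc25a35, Slc25a41, Slc25a43 and Slc25a54. Of these 7 stayed under 1 TPM in every library, and Slc25a41 and Slc25a54 were listed at 0 throughout.

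**Figure D4:**
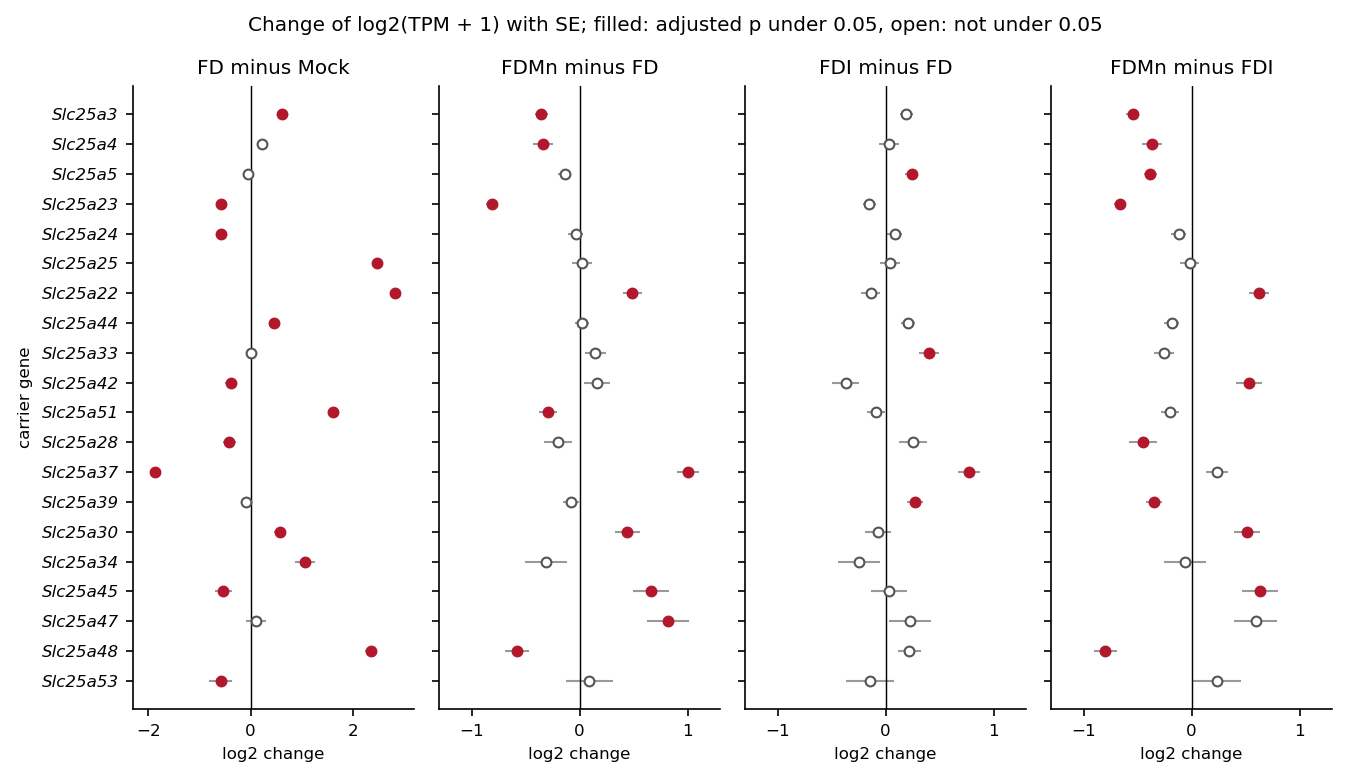
Change of log2(TPM + 1) with its SE for the 20 carriers called in at least 1 comparison, one panel per comparison, filled where the adjusted p is under 0.05. The axis of the FD panel is wider than the others: Slc25a22 is at 2.83 there, and the highest value in the manganese panel is 1.01, for Slc25a37.

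In abundance the family was uneven and its summed TPM differed between the groups. The sum over the 44 carriers was 1814, 1792 and 1783 TPM in FDMn libraries and 2069, 2058 and 2103 TPM in FDI libraries. It was 1844, 1790.0 and 1990.1 TPM in FD and 1656, 1639.6 and 1592 TPM in Mock libraries. Mock was lowest and FDI highest, and FDMn overlapped FD. The 6 genes with the highest mean over all 12 libraries, Slc25a39, Slc25a5, Slc25a3, Slc25a1, Slc25a22 and Slc25a51, held 68.8 to 74.2% of that sum. The order differed within groups, and in Mock Slc25a23 at 79.8 TPM and Slc25a24 at 74.2 TPM averaged more than Slc25a51 at 25.7 TPM and Slc25a22 at 15.8 TPM. The class of adenine nucleotides and phosphate summed to 733, 729 and 706 TPM in FDMn and 955, 971 and 955 TPM in FDI libraries. It summed to 845, 823 and 891 TPM in FD and 762, 728 and 722 TPM in Mock libraries, so the FDMn libraries overlapped Mock and were below FD and FDI. The amino acid class summed to 226, 221 and 221 TPM in FDMn, 170.5, 163 and 178 TPM in FDI, 166, 177 and 179 TPM in FD and 59.1, 65.6 and 62.2 TPM in Mock libraries.

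**Figure D5:**
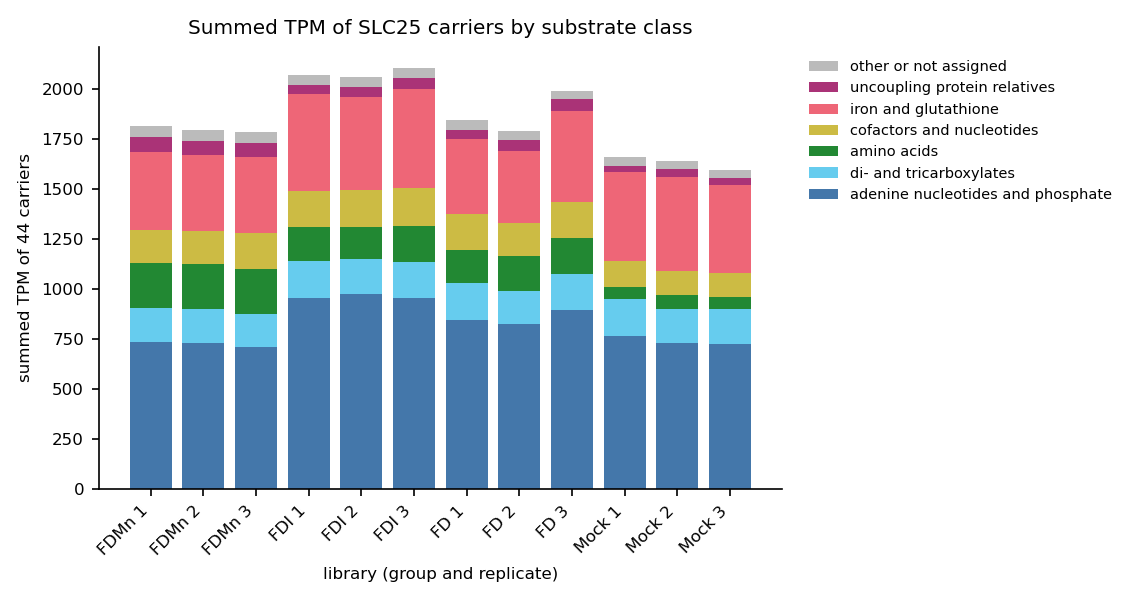
Summed TPM of the 44 carriers per library, stacked by substrate class, from 0. The sum is 2058 to 2103 TPM in FDI and 1592 to 1656 TPM in Mock, and the amino acid layer is 221 to 226 TPM in FDMn against 59.1 to 65.6 TPM in Mock.

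Genes that work with the carriers were counted for comparison. The 15 enzymes that supply or use carrier substrates split in FD, with 7 higher and 4 lower than in Mock, where 11.2% of all genes were higher and 29.9% lower. The 4 lower ones are near that background, and they became 1 with median-of-ratios scaling and 2 with quantile normalization, while 8 and 7 were higher. Pck1, the cytosolic enzyme that commits oxaloacetate to gluconeogenesis, averaged 337 ± 37.1 TPM in FD and 0.343 ± 0.171 TPM in Mock (log2 change 7.98 ± 0.10, limma adjusted p = 1.5e-13), 185 ± 12.8 TPM in FDMn and 127 ± 9.33 TPM in FDI. Got1, the cytosolic aspartate aminotransferase of the malate-aspartate shuttle, averaged 719.7 ± 15.8 TPM in FD and 80.6 ± 4.72 TPM in Mock (log2 change 3.14 ± 0.06, limma adjusted p = 4.1e-12). Gls2, liver glutaminase, which makes glutamate in the matrix, averaged 45 ± 3.11 TPM in FD and 15.4 ± 1.70 TPM in Mock (1.49 ± 0.11, adjusted p = 4.8e-07). With manganese 1 of the 15 rose and 5 fell, against 7.22% and 7.9% of all genes. The 5 became 3 without FD replicate 1, without FDMn replicate 3 or with only those 2 groups fitted. Got1 averaged 467 ± 38.1 TPM in FDMn (−0.63 ± 0.06 from FD, limma adjusted p = 6.2e-05). Pck1 fell too (−0.86 ± 0.10, adjusted p = 0.00025), as did Gls2, to 31.7 ± 3.89 TPM (−0.50 ± 0.11, adjusted p = 0.0097). The 1 that rose was Pck2, at 20.5 ± 1.79 TPM in FDMn and 14.1 ± 1.64 TPM in FD (0.51 ± 0.11, adjusted p = 0.0073). With insulin 2 rose and 2 fell, where 10.2% and 4.35% of all genes did, and in FDMn against FDI 2 were higher and 3 lower, where 5.68% and 11.9% of all genes were. With either other scaling 1 was lower there.

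Of 10 genes that import carriers into mitochondria (TOM receptors and the TIM22 pathway), 5 fell in FD and 0 rose (6 and 0 at an unadjusted p under 0.05 in limma), where 29.9% of all genes fell. The 5 became 2 with median-of-ratios scaling and 3 with quantile normalization, without Mock replicate 1 or with only those 2 groups fitted. Timm10, a chaperone of the intermembrane space, averaged 50.3 ± 8.19 TPM in FD and 91.4 ± 3.31 TPM in Mock (−0.86 ± 0.10, adjusted p = 2.3e-05), and Tomm40, the outer membrane channel, 50.4 ± 1.62 TPM in FD and 70.7 ± 4.31 TPM in Mock (−0.48 ± 0.08, adjusted p = 0.00034). With insulin 5 rose and 0 fell, where 10.2% of all genes rose, and 3 rose with either other scaling and 2 without FD replicate 2. Timm10 was at 70.0 ± 1.39 TPM in FDI (0.48 ± 0.10, adjusted p = 0.0065). With manganese 1 rose, Timm9 (0.47 ± 0.12, adjusted p = 0.019), where 7.22% of all genes rose. That manganese call was lost without FD replicate 2 and without FDMn replicate 1 or 3. In FDMn against FDI 2 import genes were lower, where 11.9% of all genes were, and 1 was with either other scaling. Of 20 general mitochondrial genes 5 fell in FD, 4 fell with manganese, 3 rose with insulin and 8 were lower in FDMn than in FDI, with none called the other way in any of these. The backgrounds were 29.9%, 7.9%, 10.2% and 11.9% of all genes in the same order, so the count in FD is not above its own. With median-of-ratios scaling 6 of the 20 rose and 1 fell in FD, and with quantile normalization 2 rose and 3 fell. The 8 lower in FDMn than in FDI became 6 and 3 with these scalings, and 4 without FDI replicate 1 or FDMn replicate 1 or 3. At an unadjusted p under 0.05 limma gave 2, 1, 1 and 0 called the other way. Mfn2, which fuses mitochondria, averaged 26.1 ± 2.85 TPM in FDMn and 41.8 ± 0.509 TPM in FD (−0.67 ± 0.07, adjusted p = 0.00014). Of 10 other membrane carriers and channels 8 were tested. Ucp2, an uncoupling protein (0.65 ± 0.21, adjusted p = 0.025), and Vdac1, an outer membrane pore (0.20 ± 0.07, adjusted p = 0.04), rose in FD, where 11.2% of all genes rose. Vdac1 was lower in FDMn than in FDI (−0.23 ± 0.07, adjusted p = 0.048), where 11.9% of all genes were lower. With either other scaling that Vdac1 call was lost, and 0 genes of this list were lower there. The mitochondrial pyruvate carriers Mpc1 and Mpc2 passed in no comparison.

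Each library had 10900 to 11161 genes at 1 TPM or above. The 7 hepatocyte markers used summed to 25681 to 35801 TPM, led by Alb. Of other liver cells, lymphocyte genes summed to at most 0.601 TPM. Kupffer cell genes summed to 6.52 to 7.80 TPM in FDMn, 4.67 to 5.84 in FDI, 4.45 to 5.81 in FD and 3.85 to 4.77 in Mock, and endothelial genes to 22.9 to 26.2 TPM in FDMn, 16.7 to 22.1 in FDI, 19.1 to 27.7 in FD and 15.2 to 16.1 in Mock. The summed TPM of 8 stellate and fibroblast genes was 15.3 to 15.9 in FDMn, 40.2 to 50.0 in FDI, 35.2 to 38.0 in FD and 48.9 to 53.0 in Mock. It was mostly Tagln, while Lrat and Pdgfrb were under 0.1 TPM. That of 6 cholangiocyte genes, mostly Spp1, was 1412 to 1606 in FDMn, 762 to 809 in FDI, 732 to 803 in FD and 1082 to 1126 in Mock, with Krt7 and Epcam under 0.65 TPM and Krt19 at most at 1.24 TPM. In that list Cldn4 had 47.6 to 54.3 TPM in FDMn, 91.8 to 112 in FDI, 55.6 to 67.6 in FD and 162 to 196 in Mock. Sox9 had 24.0 to 26.2 TPM in FDMn, 36.6 to 47.7 in FDI, 15.4 to 18.7 in FD and 32.7 to 38.7 in Mock. Their part in the carrier changes was not tested.

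Some calls rest on single libraries, and the p-values here are the highest adjusted p from limma over 19 alternatives, which also cover scaling, the filter and the pseudocount. In FD against Mock 11 of the 15 calls were kept under all of them. Slc25a28 was lost without Mock replicate 2 or 3 or without FD replicate 1 or 2 (up to 0.524), Slc25a42 without Mock replicate 3 or FD replicate 3 (up to 0.221), and Slc25a45 without Mock replicate 1 or 2 or FD replicate 3 (up to 0.104). Slc25a53 was lost without any of 10 single libraries (up to 0.327). Without Mock replicate 2 or 3 the 7 carriers that fell in FD became 4. With manganese the calls of Slc25a23, Slc25a3, Slc25a37 and Slc25a48 were kept under all alternatives. Slc25a22 lost its manganese call without FD replicates 1 and 2 together (0.0747) and under no other alternative. Without FDMn replicate 1 or 2 the calls of Slc25a30, Slc25a4, Slc25a45, Slc25a47 and Slc25a51 were lost, leaving 2 that rose and 3 that fell. FD replicate 1 had this effect for Slc25a30, Slc25a4 and Slc25a51, which also left 3 that fell, FD replicate 2 for Slc25a4, FD replicate 3 for Slc25a45 and Slc25a51, and FDMn replicate 3 for Slc25a4. The p-values reached 0.321 for Slc25a30, 0.381 for Slc25a4, 0.0784 for Slc25a45, 0.189 for Slc25a47 and 0.204 for Slc25a51.

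With insulin the call of Slc25a37 was kept under all 19 alternatives. That of Slc25a33 was lost without FDI replicate 1 or 3 (up to 0.275), that of Slc25a5 without FD replicate 2 or FDI replicate 1 (up to 0.317), and that of Slc25a39 without FD replicate 1 or 2 or FDI replicate 1 or 3 (up to 0.616). All 3 were lost without FD replicates 1 and 2 together. The count that rose with insulin was 8 without FD replicate 3, 2 without FD replicate 2 or FDI replicate 3, and 1 without FDI replicate 1. Between FDMn and FDI, 6 of 11 calls were kept throughout. Slc25a28 was lost without FDI replicate 1 or 2 or FDMn replicate 2 or 3 (up to 0.117), Slc25a4 without FDI replicate 1 or FDMn replicate 1 (up to 0.0685) and Slc25a42 without FDMn replicate 3 (0.0511). Slc25a45 was lost without FDI replicate 3 or FDMn replicate 1 or 2 (up to 0.0826), and Slc25a39 with quantile normalization (0.102).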

How the data were processed

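The deposited table holds TPM per gene for 12 libraries of total RNA enriched for poly-A transcripts. The submitters' processing notes name kallisto 0.44.0, GRCm38.p6 and DESeq2 without giving roles, and how the authors summed transcripts to genes, which annotation they used and whether reads were assigned by strand is not given in those sources. TPM sums to 1000000 in each library, so read depth is unknown and no counting interval is given. Groups come from the sample titles, and every column of the table was used.

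Genes with at least 1 TPM in at least 3 of 12 libraries (11544) were fitted as log2(TPM + 1) with limma 3.58.1 (trend) in R 4.3.3, with 1 mean per group over all 4 groups, and p-values were adjusted by Benjamini-Hochberg within each of 4 comparisons. The fitting code was checked on simulated data with independent noise for each gene and changes planted in FD. Those data did not include the split among FD libraries or any correlation between genes, so they do not bear on how firm the calls are. Sums, shares and promoter matches were computed with Python 3.11.15 and pandas 2.3.3. Promoter windows are from RefSeq on GRCm38.p6, and gene positions and exon overlaps are from the GENCODE annotation of GRCm38. Carriers are given library by library where they passed the test with a log2 change of at least 0.58 in size in at least 1 comparison, and the 6 most abundant and the main gene of each class by group means. Some genes that enter the counts and sums are not reported here. Context genes are named by their adjusted p. The carriers, classes, gene lists and motifs were chosen with earlier results of these data known. Alternatives changed the pseudocount (0.1), filter, scaling, samples fitted and replicate block, or left out 1 library. Leaving out FD replicates 1 and 2 together, and counting the lists of genes that work with the carriers under each alternative, were chosen after seeing the data.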

Additional observations from a re-analysis of the deposited data

Results flagged for a closer look

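For 7 carriers the changes from FD had opposite signs with manganese and with insulin. In each the direct limma comparison of FDMn with FDI passed the test, as did 1 of the changes from FD. That comparison does not use the FD libraries for its difference. The other change from FD did not pass in any of the 7, so its sign is uncertain. The share of all genes that meet this rule is not given here. Slc25a28 and Slc25a42 also differed between FDMn and FDI, with opposite signs from FD, but neither change from FD passed. Slc25a22, the glutamate carrier, differed by 0.62 on the log2 scale between FDMn and FDI (adjusted p = 0.00056), with changes from FD of 0.49 ± 0.09 in FDMn and −0.14 ± 0.09 in FDI. Slc25a30, the uncoupling protein relative, differed by 0.51 (adjusted p = 0.01), with 0.44 ± 0.12 in FDMn and −0.07 ± 0.12 in FDI, the latter smaller than its SE. Slc25a48, linked to choline uptake, differed by −0.80 (adjusted p = 0.00041), with −0.58 ± 0.11 and 0.22 ± 0.11 in the same order. The phosphate carrier Slc25a3 differed by −0.55 (adjusted p = 9.5e-05), with −0.36 ± 0.06 and 0.19 ± 0.06. The ADP/ATP translocases Slc25a4 and Slc25a5 differed by −0.37 (adjusted p = 0.017) and −0.38 (adjusted p = 0.0011). The values from FD were −0.34 ± 0.09 in FDMn and 0.03 ± 0.09 in FDI for Slc25a4, the insulin value being smaller than its SE, and −0.14 ± 0.06 and 0.24 ± 0.06 for Slc25a5. Slc25a39, needed for glutathione uptake, differed by −0.35 (adjusted p = 0.0073), with −0.08 ± 0.07 and 0.27 ± 0.07. Of the changes from FD, the manganese one passed the test by itself for Slc25a22, Slc25a30, Slc25a48, Slc25a3 and Slc25a4, and the insulin one did for Slc25a5 and Slc25a39.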

How the results depend on the processing

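Of the 40 carrier calls in the 4 comparisons, 22 were kept under all 19 alternatives. Over all calls and alternatives, 664 of 760 checks kept the call, 96 lost it and 0 changed direction. Scaling moved the FD comparison: the 7 carriers that fell became 3 with median-of-ratios scaling and 3 with quantile normalization. Fitting only the FD and Mock groups, which leaves the scaling as it is, gave 4. Over all genes, median-of-ratios scaling gave 2059 higher and 1972 lower in FD against Mock, and quantile normalization 2178 lower, against 1296 and 3447 in the fit reported. With manganese, 3 carriers rose with no filter on low values and 2 without FD replicates 1 and 2 together, and 3 fell when only the FDMn and FD groups were fitted. Without those FD libraries, 293 genes rose and 338 fell with manganese, against 834 and 912. With insulin, 2 carriers rose with quantile normalization, 2 with only the FDI and FD groups and 1 without FD replicates 1 and 2, and 1 fell under median-of-ratios and under quantile scaling. Over all genes 681 rose and 304 fell with insulin when only those groups were fitted, and 446 and 176 without FD replicates 1 and 2, against 1172 and 502. Between FDMn and FDI, quantile normalization gave 909 genes lower, against 1375. Fitting only the FDMn and FDI groups gave 779 genes higher and 1606 lower in FDMn than in FDI, against 656 and 1375. The cause of these shifts was not tested.

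Leaving out 1 library gave 4 to 7 carriers that fell in FD, 2 to 5 that rose and 3 to 6 that fell with manganese, 1 to 8 that rose and 0 to 1 that fell with insulin. Over all genes it gave 478 to 1005 higher and 540 to 1020 lower with manganese, 733 to 1438 higher and 321 to 683 lower with insulin, and 404 to 715 higher in FDMn than in FDI.

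No pairing by replicate number was detected, although so few samples cannot exclude one. The 18 correlations of same-numbered samples across groups, taken after subtracting group means, ran between −0.0976 and 0.0684, with 0 over 0.1. For each sample, correlations were averaged over the samples of other groups with each replicate number. That mean was highest for the sample's own number in 5 of 12. With the number as a replicate block, 38 of the 40 calls were kept, with 8 carriers higher and 7 lower in FD against Mock, 5 higher and 4 lower in FDMn than in FD, 4 higher and 0 lower in FDI than in FD, and 5 higher and 6 lower in FDMn than in FDI. With the block Slc25a51 was lost in FDMn against FD (adjusted p = 0.0585) and Slc25a28 in FDMn against FDI (adjusted p = 0.0529). Without read counts, the precision of carriers near 1 TPM is known only from 3 libraries a group.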
